A study of Mus musculus with 47 samples.

Results

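The genes described here encode the pore-forming and auxiliary subunits of voltage-gated sodium channels, voltage-gated calcium channels and the hyperpolarization-activated HCN channels. They were taken by symbol from the gene count table: the Scn genes ending in a (alpha subunits) or b (beta subunits), Cacna1a to Cacna1s, Cacna2d1 to Cacna2d4, Cacnb1 to Cacnb4, and the Hcn genes. The rule reads symbols only and found 35 of the 45706 genes in the table. They fell into 9 sodium channel alpha genes, 4 sodium channel beta genes, 7 high-voltage-activated and 3 T-type calcium channel alpha1 genes, 4 alpha2delta genes, 4 calcium channel beta genes and 4 HCN genes. The brain sodium channel gene Scn2a carried the symbol Scn2a1 in the table and so stood outside the rule. Its level is given where a share of the sodium channel alpha genes turned on it.

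The study measured polyadenylated RNA of mouse prefrontal cortex (PFC) and hippocampus after saline or after an inhibitor of PICK1 or of PSD-95, a pair of PDZ-domain scaffold proteins of the synapse. Its 47 libraries formed 6 groups by tissue and treatment: PFC Saline with 8, PFC PICK1i with 8, PFC PSD-95i with 8, hippocampus Saline with 7, hippocampus PICK1i with 8 and hippocampus PSD-95i with 8. The protocol in the labels describes DIO mice, kept in pairs, that received daily injections over 5 days of isotonic saline, of mPD5 at 56 mg/kg or of UCCB01-147 at 25 mg/kg, with tissue taken 2 h after the last injection. That mPD5 is the PICK1i agent and UCCB01-147 the PSD-95i agent was taken from general knowledge of these peptides, not from the labels. All groups, saline included, were DIO mice by that protocol, so no lean control was part of the comparison. The same protocol speaks of hypothalamus and gives a saline group of another size, so it may have been written for a related experiment. Strain, sex and age were not given in the sources used here.

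Sodium channel alpha subunits carry the rising phase of the action potential, and their beta subunits are single-span membrane proteins that set gating and placement at the axon initial segment and nodes. High-voltage-activated calcium channels couple depolarization to transmitter release and to signalling in dendrites, each built of an alpha1 pore, an intracellular beta subunit and an extracellular alpha2delta subunit. T-type channels open near rest and give burst firing, and HCN channels carry the inward current that follows hyperpolarization and shape dendritic integration in cortical and hippocampal pyramidal cells. PSD-95 and PICK1 act at the protein level, and both bind glutamate receptors or proteins that hold them at the synapse.

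Gene counts per library summed to between 5378174 and 13139408. Levels are given as CPM, a gene's count relative to the scaled total of its library, and a gene is called changed where its adjusted p in edgeR's quasi-likelihood test was under 0.05 over all genes tested. All 6 upper cortical layer markers were lower in hippocampus than in PFC after saline, with summed levels of 210 to 293 CPM against 666 to 1370 CPM. All 5 dentate granule cell markers were higher, at 141 to 507 CPM against 8.80 to 16 CPM, so the tissue labels of the saline libraries matched their markers. In 6 libraries the markers of a neighbouring region stood at least 2 log2 units over the tissue median. Striatal markers did so in PFC Saline 1, hippocampus Saline 1 and hippocampus PICK1i 2, olfactory bulb markers in PFC PICK1i 6 and PFC PSD-95i 6, and thalamic markers in hippocampus PICK1i 7. Calls that depended on these 6 libraries are given with and without all 6 or the single library concerned. Choroid plexus markers passed the same limit in 5 other libraries, hippocampus Saline 5, hippocampus PICK1i 8 and hippocampus PSD-95i 3, 6 and 7, with sums of 2290 to 5670 CPM against 42.5 to 317 CPM in the other hippocampal libraries. In hippocampus PICK1i the lowest mean log2 CPM of the dentate markers was 1.64, in a library high in markers of another region. The 6 libraries of that group not so marked had 4.39 or more. For CA1 markers the lowest was 4.11 beside 6 or more, and for CA2 and CA3 markers 3.68 beside 5.08 or more. Hippocampal markers were thus low in part of that group, which entered the main fits whole. The labels do not say that the libraries came from separate mice, and each p then reflects only how far these samples vary, which may be technical. In these bulk samples fewer cells of a type and less RNA per cell cannot be told apart.

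Between the tissues, the channel genes differed in both directions. Of the 35 genes, 30 had enough counts to be tested, and after saline 17 of these differed between hippocampus and PFC, against 38.3% of all 15658 genes tested. Of the 17, 6 were higher in hippocampus (Cacna1h, Scn3b, Cacna1e, Scn3a, Cacna1c and Cacnb2) and 11 were lower, beside 19.5% and 18.8% of all genes. The median log2 difference over the 30 genes was -0.25, beside 0.01 over all genes tested. After PICK1i 18 genes differed, 7 higher and 11 lower, against 36.8% of all genes (18.5% higher and 18.3% lower). After PSD-95i 20 differed, 7 higher and 13 lower, against 45% of all genes (23.1% higher and 21.9% lower). In all 3 treatments 16 genes differed in the same direction, 6 higher and 10 lower in hippocampus, beside 26.9% of all genes (13.4% higher and 13.5% lower), and no gene was called in opposite directions. Without the 6 libraries the counts were 19, 20 and 23, and without the 5 libraries high in choroid plexus markers 14, 17 and 18. The latter ended the saline calls on Cacna1b, Cacna2d1 and Hcn2, the PICK1i call on Cacna1g and the PSD-95i calls on Cacna2d1 and Hcn4. Leaving out the 6 libraries ended the PICK1i calls on Cacna1d and Cacna2d1, the latter among the 16 genes. Markers of other cell classes moved between the tissues too. All 10 oligodendrocyte markers were higher in hippocampus after saline, with summed levels of 3170 to 7370 CPM against 1890 to 3540 CPM in PFC, and the part of such differences in the channel genes was not tested.

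**Figure D1:**
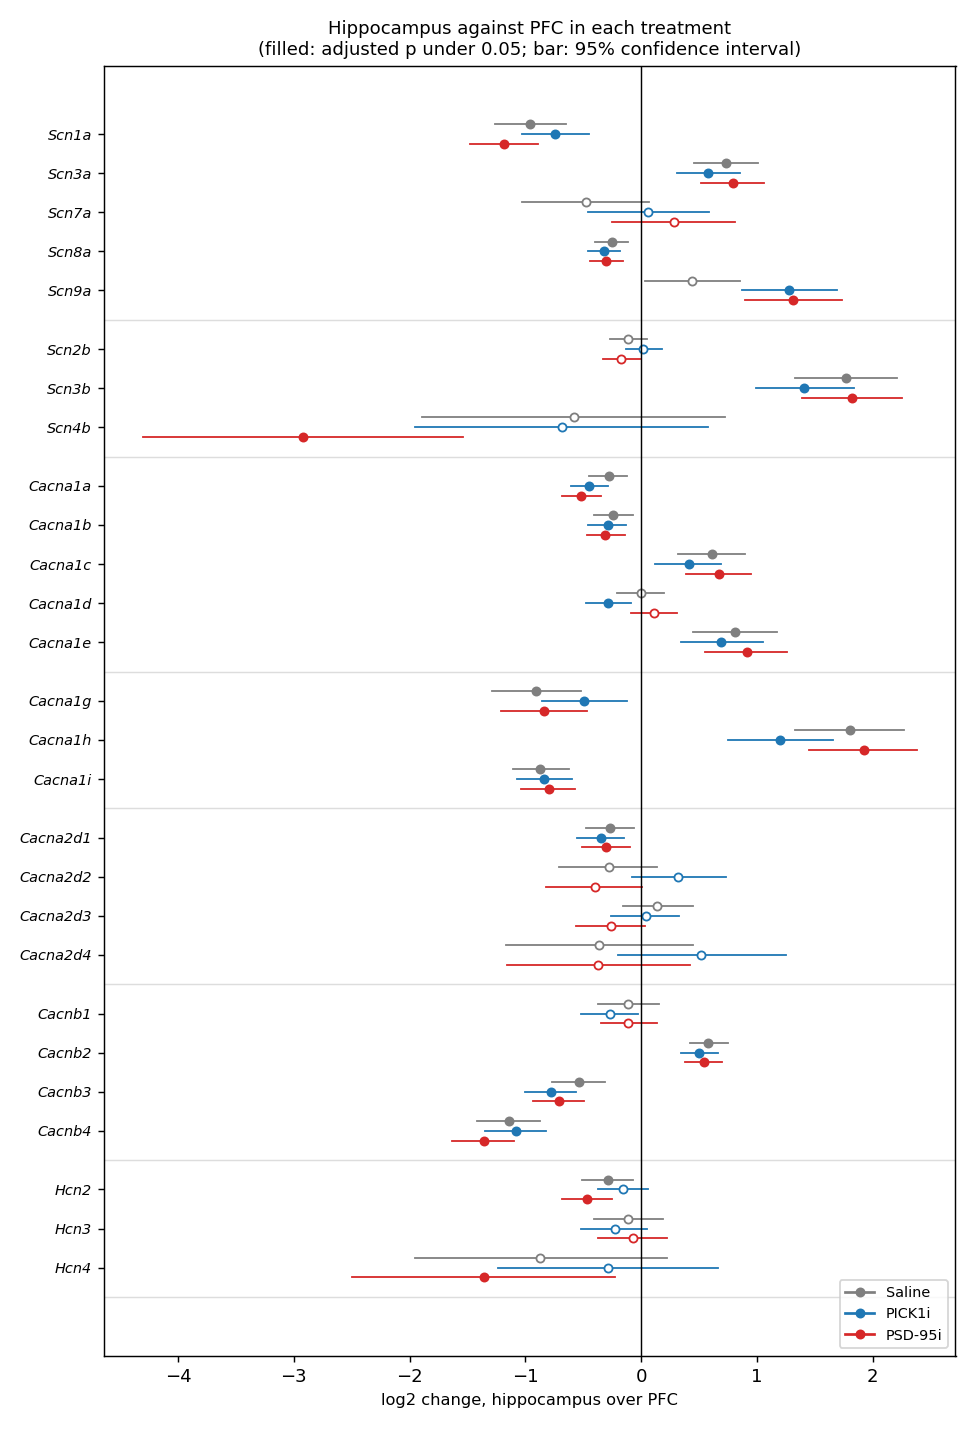
Log2 difference between hippocampus and PFC for the tested channel genes described here, after saline, PICK1i and PSD-95i, with 95% confidence intervals; filled points have an adjusted p under 0.05. Cacna1h and Scn3b lie farthest to the right in the saline libraries at 1.80 and 1.77, and Cacnb4 and Scn1a lie to the left at -1.14 and -0.96.

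Among the sodium channel alpha genes, Scn1a was lower and Scn3a higher in hippocampus. Scn1a encodes Nav1.1, a prominent sodium channel of fast-spiking interneurons. Its lowest, median and highest levels were 111, 135 and 183 CPM in PFC Saline and 68.4, 72.7 and 75.1 CPM in hippocampus Saline. They were 83.9, 125 and 194 CPM in PFC PICK1i and 125, 172 and 184 CPM in PFC PSD-95i. The hippocampal values were 58.5, 73.5 and 157 CPM with PICK1i and 62.0, 70.8 and 83.7 CPM with PSD-95i. The tissues did not overlap after saline or after PSD-95i. After PICK1i they overlapped, with hippocampus PICK1i 7 at 157 CPM and the next highest hippocampal library at 84.0 CPM, and without the 6 libraries they did not. After saline the hippocampal level was 0.515 times the PFC level, a log2 difference of -0.96 (SE 0.15, adjusted p = 1.36e-06). The log2 difference was -0.74 after PICK1i and -1.18 after PSD-95i, and -0.99 after saline without the 6 libraries. Of 7 interneuron markers, 2 were lower in hippocampus after saline, Pvalb by a log2 difference of -1.52 and Vip by -1.95, and the other 5 did not pass the test. Their summed level was 613 to 861 CPM in hippocampus Saline and 783 to 881 CPM in PFC Saline, and none of the 7 was at 0 in any library. Their part in the Scn1a difference was not tested.

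Scn3a encodes Nav1.3, a channel best known from the developing brain. Its levels in PFC Saline were 18.1, 20.2 and 22.4 CPM (lowest, median, highest), against 26.5, 34.8 and 40.2 CPM in hippocampus Saline. They were 16.1, 19.9 and 33.1 CPM in PFC PICK1i and 14.4, 19.2 and 24.8 CPM in PFC PSD-95i. The hippocampal PICK1i and PSD-95i groups had 19.5, 32.1 and 46.9 CPM and 25.9, 32.9 and 42 CPM. Hippocampus had the higher median in each treatment, the saline groups did not overlap, and the log2 difference was 0.73 (SE 0.14, adjusted p = 2.55e-05). It was 0.58 after PICK1i and 0.79 after PSD-95i. Scn8a, the gene of Nav1.6 at the axon initial segment, was lower in hippocampus by a smaller margin. It ran from 522 to 605 CPM in PFC Saline and from 433 to 553 CPM in hippocampus Saline, ranges that overlapped, with a log2 difference of -0.25 (adjusted p = 0.00418). Scn9a, the gene of Nav1.7, was scarce in both tissues. Its median was 3 CPM in PFC Saline and 3.99 CPM in hippocampus Saline, a log2 difference of 0.44 that did not pass the test (adjusted p = 0.0867). It was called higher in hippocampus after PICK1i at 1.28 (adjusted p = 1.88e-06) and after PSD-95i at 1.31 (adjusted p = 8.26e-07). Scn7a passed the test in no treatment, with medians of 5.50 CPM in PFC Saline and 3.37 CPM in hippocampus Saline.

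Per kilobase of transcript, which allows genes to be compared with each other, Scn8a held the largest share of the sodium channel alpha pool in both tissues. Its share was 46.2% ± 1.77 (SD, n = 8) in PFC Saline and 50.5% ± 1.47 (SD, n = 7) in hippocampus Saline. The share of Scn1a was 21.4% ± 2.27 in PFC Saline and 14.3% ± 0.741 in hippocampus Saline, and that of Scn3a was 1.86% ± 0.165 and 3.87% ± 0.663. Scn2a1 held 29.5% in PFC Saline and 30.2% in hippocampus Saline. Its counts were lower in hippocampus after saline, by a log2 difference of -0.30 (adjusted p = 0.0399). The summed alpha pool stood at 148 ± 15.9 CPM per kb in PFC Saline and 117 ± 8.89 CPM per kb in hippocampus Saline.

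Scn3a, Scn1a, Scn9a and Scn7a lie in 1 cluster on the minus strand of chromosome 2 (GRCm38, GENCODE M21). Scn3a lies at chr2:65457118-65567627, Scn1a at chr2:66270778-66440840, Scn9a at chr2:66480080-66634962 and Scn7a at chr2:66673425-66784914. Within the cluster Scn3a was higher and Scn1a lower in hippocampus in every treatment, and Scn9a was called higher after both inhibitors and not after saline. Without PFC Saline 1 it was called after saline as well, at 0.52 (adjusted p = 0.0466), and so it was with only the saline groups in the fit, at 0.44 (adjusted p = 0.0309). The test of that difference between treatments is given with the inhibitor results.

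Among the sodium channel beta genes Scn3b was higher in hippocampus and Scn2b was not called. Scn3b (chr9:40269217-40291618, plus strand) had levels of 53.7, 71.9 and 92.8 CPM in PFC Saline and 196, 232 and 325 CPM in hippocampus Saline. The inhibitor groups in PFC had 53.7, 74.6 and 105 CPM in PFC PICK1i and 42.7, 65.3 and 102 CPM in PFC PSD-95i. Those in hippocampus had 41.9, 236 and 284 CPM and 154, 245 and 307 CPM. The hippocampal level was 3.41 times the PFC level after saline, a log2 difference of 1.77 (SE 0.22, adjusted p = 9.12e-09). The log2 difference was 1.41 after PICK1i, 1.69 without the libraries that stood apart, and 1.82 after PSD-95i. Every PFC library held 42.7 to 105 CPM and every hippocampal library at least 154 CPM, except hippocampus PICK1i 7 at 41.9 CPM. Scn2b was nearly level between the tissues, with medians of 289 and 254 CPM and a log2 difference of -0.11 (95% interval -0.27 to 0.05). After PSD-95i it was not called in the main fit (adjusted p = 0.0687), but was under several alternatives. These included leaving out the 6 libraries, at -0.18 (adjusted p = 0.0299), and leaving out PFC PSD-95i 2 alone, at -0.21 (adjusted p = 0.0349). With only the PSD-95i groups in the fit it was -0.18 (adjusted p = 0.0171).

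Scn4b, whose product supports resurgent sodium current, had a tissue difference that turned on single libraries. In PFC Saline its levels were 135, 160 and 264 CPM, and in hippocampus Saline 10, 33 and 648 CPM. The 648 CPM came from hippocampus Saline 1, and the next highest library of that group held 36.2 CPM. The other groups had levels of 89.5, 160 and 214 CPM in PFC PICK1i and 113, 165 and 196 CPM in PFC PSD-95i. In hippocampus they were 9.33, 24.8 and 448 CPM after PICK1i and 11.9, 20.3 and 38.6 CPM after PSD-95i. The 448 CPM came from hippocampus PICK1i 2, and the next highest library of its group, hippocampus PICK1i 7, held 171 CPM, within the PFC range. In all libraries together the saline difference did not pass the test, at -0.58 (SE 0.65, adjusted p = 0.509), nor did that after PICK1i at -0.68 (adjusted p = 0.421). After PSD-95i Scn4b was lower in hippocampus by a log2 difference of -2.92 (adjusted p = 0.000496). Without the 6 libraries it was called lower in hippocampus after saline as well, at -2.66 (adjusted p = 1.98e-10), and after PICK1i at -2.93 (adjusted p = 2.15e-11). Leaving out hippocampus Saline 1 alone gave -2.77 after saline (adjusted p = 8.92e-05), and leaving out hippocampus PICK1i 2 alone gave -1.85 after PICK1i (adjusted p = 0.0119). Summed striatal markers reached 1850 CPM in hippocampus Saline 1 and 1210 CPM in hippocampus PICK1i 2. Scn4b (chr9:45138395-45154152) lies next to Scn2b (chr9:45117782-45130070) on the plus strand.

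**Figure D2:**
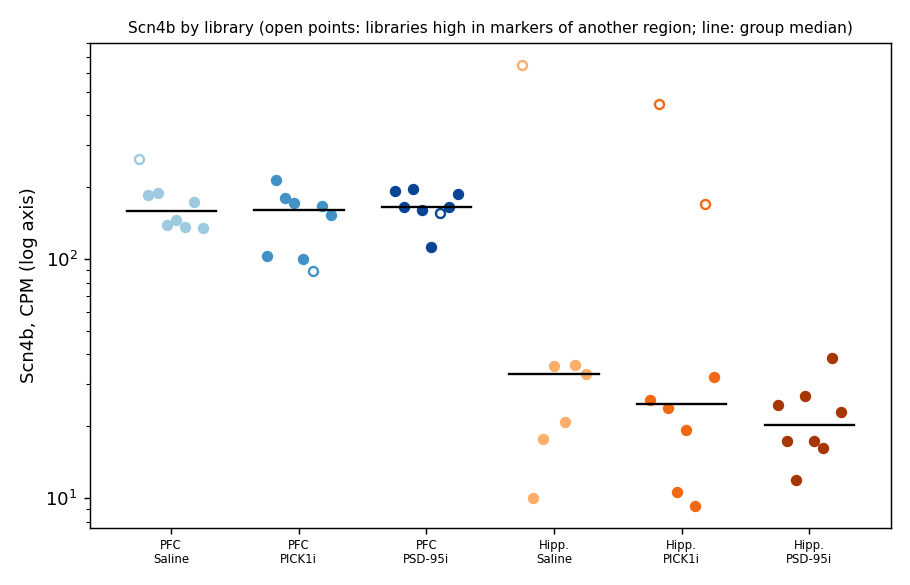
Scn4b level in CPM on a log axis for every library of the 6 groups; open points mark the 6 libraries high in markers of another region and lines mark group medians. Hippocampus Saline 1 at 648 CPM and hippocampus PICK1i 2 at 448 CPM lie above every PFC library, while all 8 hippocampus PSD-95i libraries lie between 11.9 and 38.6 CPM.

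Of the 5 high-voltage-activated alpha1 genes tested, Cacna1e and Cacna1c were higher in hippocampus and Cacna1a and Cacna1b lower. Cacna1e (chr1:154390731-154884501, minus strand) encodes Cav2.3, the R-type channel. Its levels were 245, 307 and 359 CPM in PFC Saline and 460, 527 and 651 CPM in hippocampus Saline. After PSD-95i they were 245, 268 and 313 CPM in PFC and 415, 516 and 646 CPM in hippocampus. With PICK1i they were 233, 279 and 342 CPM in PFC and 79.6, 524 and 602 CPM in hippocampus. The tissues did not overlap after saline or PSD-95i, and the saline log2 difference was 0.81 (SE 0.18, adjusted p = 0.000325). After PICK1i the difference was 0.69, and 0.92 without the libraries that stood apart; hippocampus PICK1i 7 held 79.6 CPM and the next lowest of its group 413 CPM. Cacna1c (chr6:118587240-119196418, minus strand), the L-type channel Cav1.2, had levels of 75.3, 97.5 and 112 CPM in PFC Saline and 111, 140 and 177 CPM in hippocampus Saline. They were 77, 99.6 and 221 CPM in PFC PICK1i and 84.9, 97.1 and 105 CPM in PFC PSD-95i. In the hippocampal inhibitor groups they were 81.5, 155 and 192 CPM and 118, 156 and 179 CPM. The tissues overlapped narrowly after saline, and the log2 difference was 0.61 (SE 0.14, adjusted p = 0.000661). It was 0.41 after PICK1i (adjusted p = 0.0194) and 0.67 after PSD-95i. The PICK1i call was lost without hippocampus PICK1i 4 (adjusted p = 0.0621).

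Cacna1a and Cacna1b encode the P/Q-type and N-type channels of presynaptic terminals. Cacna1a (chr8:84388440-84640246, plus strand) had levels of 190, 215 and 255 CPM in PFC Saline and 158, 177 and 200 CPM in hippocampus Saline. The PFC inhibitor groups had 181, 231 and 252 CPM in PFC PICK1i and 206, 244 and 259 CPM in PFC PSD-95i. The hippocampal inhibitor groups had 121, 170 and 195 CPM and 144, 168 and 195 CPM. The saline groups overlapped, and the log2 difference was -0.28 (SE 0.08, adjusted p = 0.00512), beside -0.45 after PICK1i and -0.52 after PSD-95i. Cacna1b had medians of 147 and 123 CPM in the saline groups and a log2 difference of -0.24 (adjusted p = 0.0241), a call that was lost without hippocampus Saline 7 (adjusted p = 0.0577). Cacna1d, the L-type channel Cav1.3, had medians of 69.4 and 69.8 CPM in the saline groups. It was called lower in hippocampus after PICK1i alone, at -0.29 (adjusted p = 0.0197). Without PFC PICK1i 6, which held 137 CPM, that difference was -0.13 (adjusted p = 0.141). As shares of the pool per kilobase, Cacna1a held 40.3% ± 2.88 (SD, n = 8) in PFC Saline and 31.4% ± 1.97 (SD, n = 7) in hippocampus Saline, and Cacna1e held 22.6% ± 2.04 and 34.9% ± 2.17. Cacna1e thus stood above Cacna1a in the order of hippocampal shares, by less than their summed SDs, and below it in the PFC. The pool sum was 105 ± 5.77 CPM per kb in PFC Saline and 122 ± 8.17 CPM per kb in hippocampus Saline.

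All 3 T-type genes differed between the tissues, and not in the same direction. Cacna1h (chr17:25374285-25433783, minus strand), the gene of Cav3.2, was higher in hippocampus. Its levels were 49.4, 56.3 and 88.6 CPM in PFC Saline, 51.8, 66.2 and 176 CPM in PFC PICK1i and 38.5, 48 and 68.9 CPM in PFC PSD-95i. They were 146, 223 and 254 CPM in hippocampus Saline, 40, 213 and 247 CPM in hippocampus PICK1i and 133, 203 and 241 CPM in hippocampus PSD-95i. The tissues overlapped only through PFC PICK1i 6 at 176 CPM and hippocampus PICK1i 7 at 40 CPM. After saline the hippocampal level was 3.48 times the PFC level, a log2 difference of 1.80 (SE 0.23, adjusted p = 2.62e-08). It was 1.20 after PICK1i (adjusted p = 2.73e-05), 1.68 without the libraries that stood apart, and 1.92 after PSD-95i (adjusted p = 3.12e-09).

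Cacna1g, the gene of Cav3.1, was lower in hippocampus. It had levels of 115, 128 and 135 CPM in PFC Saline and 27.4, 68.7 and 103 CPM in hippocampus Saline. Its levels were 117, 127 and 189 CPM in PFC PICK1i and 117, 130 and 143 CPM in PFC PSD-95i. In hippocampus with PICK1i and with PSD-95i they were 62.5, 78.3 and 234 CPM and 64.6, 71.4 and 90.0 CPM. The saline and the PSD-95i groups did not overlap between the tissues, and the saline log2 difference was -0.91 (SE 0.19, adjusted p = 0.000165). After PICK1i the difference was -0.49 (adjusted p = 0.0307), and -0.73 without the libraries that stood apart, 1 of which, hippocampus PICK1i 7, held 234 CPM. The PICK1i call on Cacna1g was lost when PFC PICK1i 6 or hippocampus PICK1i 1, 2, 3, 5 or 8 alone was left out. Cacna1i, the gene of Cav3.3, had levels of 126, 142 and 181 CPM in PFC Saline and 61.9, 77.5 and 96.4 CPM in hippocampus Saline. With the inhibitors they were 102, 146 and 201 CPM in PFC PICK1i and 137, 153 and 173 CPM in PFC PSD-95i. The corresponding hippocampal values were 55.7, 87.3 and 110 CPM and 74.3, 81.1 and 111 CPM. The saline groups did not overlap, and the log2 difference was -0.87 (SE 0.12, adjusted p = 1.3e-07), beside -0.84 after PICK1i and -0.80 after PSD-95i.

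Per kilobase, the summed T-type pool was 57.7 ± 5.21 CPM per kb (SD, n = 8) in PFC Saline and 64.5 ± 2.94 CPM per kb (SD, n = 7) in hippocampus Saline, a gap smaller than the summed SDs. Its makeup differed by more than that spread. Cacna1h made up 17.7% ± 3.28 of the pool in PFC Saline and 57.2% ± 9.45 in hippocampus Saline. Cacna1g made up 49.1% ± 2.27 and 25.8% ± 9.53, and Cacna1i 33.2% ± 3.57 and 16.9% ± 2.73. The Cacna1h share ran from 13.9 to 23.6% in PFC Saline, from 14.7 to 29% in PFC PICK1i and from 13.8 to 20.3% in PFC PSD-95i. In hippocampus it ran from 39.9 to 68.1% after saline and from 42 to 61.5% after PSD-95i. After PICK1i it ran from 11.5 to 64.3%, and from 42.5 to 64.3% without the libraries that stood apart. Of the counts of these genes, 61.1% for Cacna1g and 56.6% for Cacna1i were assigned to coding transcripts, so the shares also hold transcripts not annotated as coding.

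**Figure D3:**
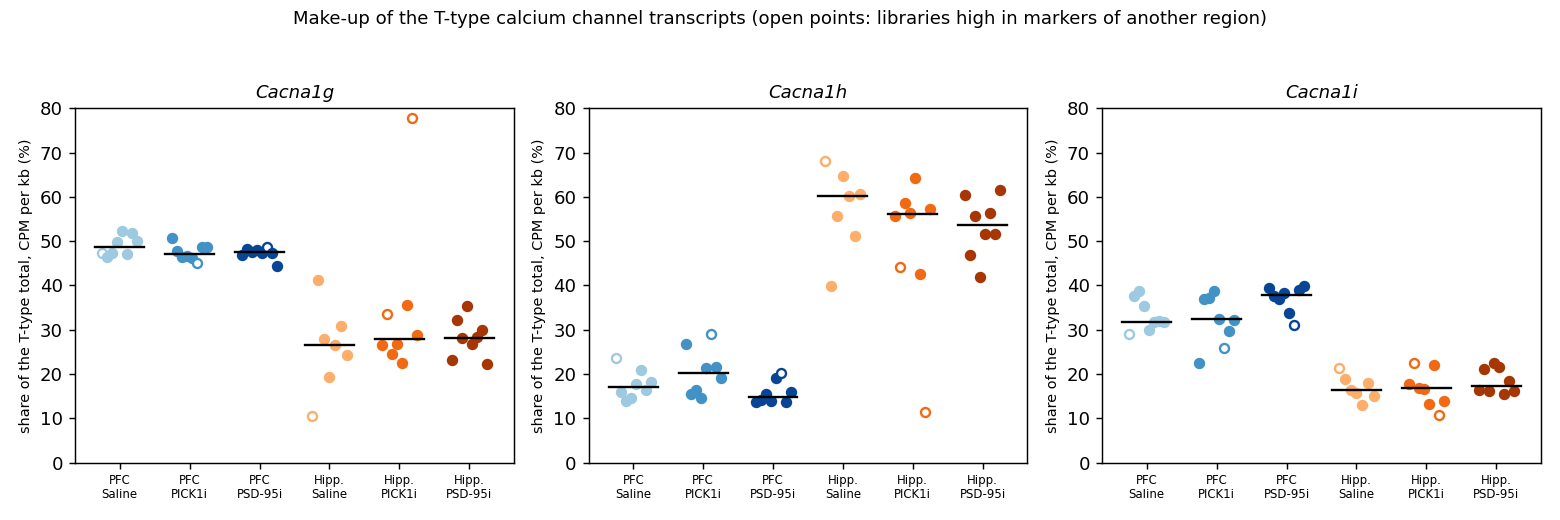
Share of the summed T-type level (CPM per kb of transcript, in percent) held by Cacna1g, Cacna1h and Cacna1i in every library, by tissue and treatment. The Cacna1h share lies between 13.9 and 23.6% in PFC Saline and between 39.9 and 68.1% in hippocampus Saline.

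The 4 alpha2delta genes, whose products bring calcium channels to the membrane and include the gabapentin-binding forms, held 1 call after saline. Cacna2d1 had levels of 183, 216 and 251 CPM in PFC Saline and 163, 179 and 220 CPM in hippocampus Saline, ranges that overlapped, with a log2 difference of -0.27 (adjusted p = 0.0335). That call was lost when any of 5 single libraries was left out. Cacna2d1 was also called lower after PICK1i (adjusted p = 0.0048), but not without the 6 libraries, at -0.20 (adjusted p = 0.0663). Cacna2d2, Cacna2d3 and Cacna2d4 did not pass the test in any of the 3 treatments with all libraries. Without the 6 libraries Cacna2d2 was lower in hippocampus after saline, at -0.44 (adjusted p = 0.0284), and after PSD-95i, at -0.42 (adjusted p = 0.0219). Cacna2d3 was then lower after PSD-95i, at -0.32 (adjusted p = 0.0164), and Cacna2d4 after PICK1i, at -0.55 (adjusted p = 0.0416). With all libraries their saline log2 differences were -0.28 (95% interval -0.71 to 0.14) for Cacna2d2, 0.14 (-0.16 to 0.45) for Cacna2d3 and -0.36 (-1.17 to 0.45) for Cacna2d4. Cacna2d4 was scarce, with medians of 2.53 and 2.05 CPM in the saline groups. Per kilobase, Cacna2d1 held 54.1% of this pool in PFC Saline and 49.3% in hippocampus Saline, followed by Cacna2d3 with 33.9% and 40%.

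Of the 4 calcium channel beta genes, whose products bind the alpha1 subunit inside the cell, Cacnb2 was higher and Cacnb3 and Cacnb4 were lower in hippocampus. For these 3 genes no library of either tissue, whether or not it stood apart, entered the range of the other. No other channel gene separated the tissues so fully, and how many of all genes did was not counted. Cacnb2 ran from 41.3 to 59.1 CPM over the 24 PFC libraries and from 61.0 to 88.2 CPM over the 23 hippocampal libraries. Cacnb4 ran from 50.5 to 131 CPM in PFC and from 25.8 to 47.9 CPM in hippocampus, and Cacnb3 from 188 to 292 CPM and from 51.7 to 163 CPM. Both Cacnb2 and Cacnb4 lie on chromosome 2, Cacnb2 at chr2:14603088-14987908 on the plus strand and Cacnb4 at chr2:52428320-52676831 on the minus strand. After saline the log2 difference was 0.58 for Cacnb2 (SE 0.08, adjusted p = 9.52e-08), with 42.8, 47.7 and 59.1 CPM in PFC Saline and 61.3, 72.3 and 88.2 CPM in hippocampus Saline. It was -1.14 for Cacnb4 (SE 0.14, adjusted p = 3.32e-09), with 58.5, 79.7 and 92.9 CPM and 25.8, 34.8 and 47.9 CPM. For Cacnb3 it was -0.54 (SE 0.11, adjusted p = 0.000144), with 188, 206 and 223 CPM and 117, 136 and 160 CPM.

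In the inhibitor groups Cacnb2 had 41.3, 52.2 and 57.2 CPM in PFC PICK1i and 44.3, 50.1 and 55.7 CPM in PFC PSD-95i. Its hippocampal values with PICK1i and PSD-95i were 64.8, 68.8 and 82.6 CPM and 61.0, 70.5 and 84.6 CPM. PFC stood below hippocampus with either inhibitor. Cacnb4 had 50.5, 71.9 and 115 CPM in PFC PICK1i and 71.6, 85.5 and 131 CPM in PFC PSD-95i. Its hippocampal values with PICK1i and PSD-95i were 27.8, 35.1 and 46.3 CPM and 29.6, 33.7 and 45.4 CPM. For Cacnb4, the subunit lost in the lethargic mouse, PFC stood above. Cacnb3 had 199, 217 and 241 CPM in PFC PICK1i and 207, 226 and 292 CPM in PFC PSD-95i. Its hippocampal values with PICK1i and PSD-95i were 51.7, 140 and 163 CPM and 128, 142 and 162 CPM. Cacnb3 had the higher median in PFC too. With PICK1i and PSD-95i the log2 differences were 0.50 and 0.54 for Cacnb2, -1.08 and -1.36 for Cacnb4, and -0.78 and -0.71 for Cacnb3. Cacnb1 did not pass the test after saline, at -0.11 (95% interval -0.37 to 0.15), and was called lower after PICK1i without the 6 libraries, at -0.22 (adjusted p = 0.0027). Per kilobase, Cacnb1 and Cacnb3 made up most of the pool, with 45% and 40.3% in PFC Saline and 48.8% and 32.5% in hippocampus Saline. The share of Cacnb2 was 8.53% ± 0.729 (SD, n = 8) in PFC Saline and 15.5% ± 1.74 (SD, n = 7) in hippocampus Saline, and that of Cacnb4 was 6.16% ± 1.18 and 3.27% ± 0.414.

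**Figure D4:**
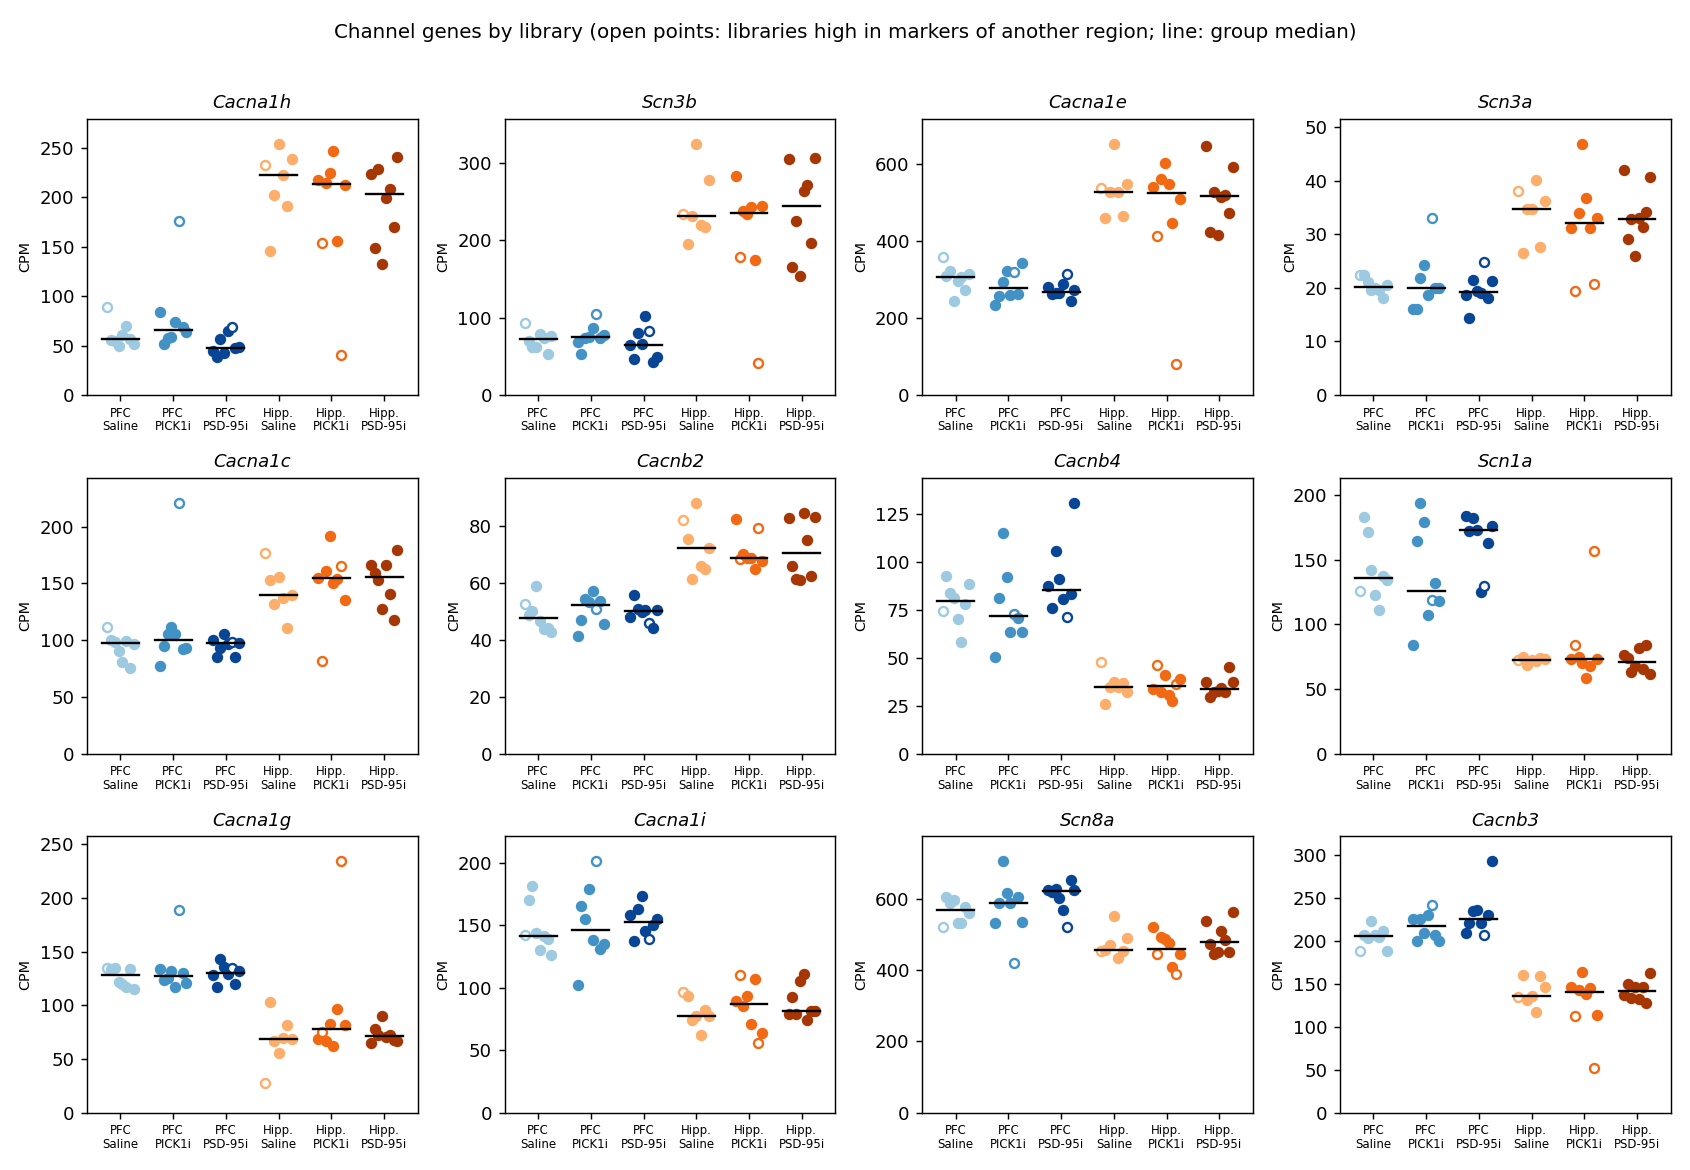
Levels in CPM of 12 channel genes in every library of the 6 groups; open points mark the 6 libraries high in markers of another region and lines mark group medians. Cacnb2 is a panel where PFC (41.3 to 59.1 CPM) lies wholly below hippocampus (61.0 to 88.2 CPM), and Cacnb4 a panel where it lies wholly above (50.5 to 131 CPM against 25.8 to 47.9 CPM).

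The promoters of 3 chromosome 2 genes that moved in different directions are shown to set their base makeup side by side. RefSeq start regions on GRCm38.p6 (250 bases before to 50 after a start) were matched for 25 of the 35 genes, giving 34 regions. The GC-box letters GGGCGG, searched on both strands, were in 16 of these 34 regions (47.1%), beside 35.7% of all 32851 start regions. TATAAA was in 1, that of Cacna1d, beside 13.6% of all regions. TGACGTCA and CACGTG were in none, beside 1.79% and 7.15% of all. The regions below are written 5′ to 3′ on the gene's strand, with GC-box letters on either strand in capitals. Cacnb2 has a start region at chr2:14604056-14604355 (plus strand, 71.7% GC, 35 CpG) and a later one at chr2:14823842-14824141 (plus strand, 44% GC, 4 CpG). Cacnb4 has 3 start regions, of which that at chr2:52676094-52676393 (minus strand, 78.3% GC, 40 CpG) is shown. Those at chr2:52675810-52676109 (69.7% GC, 27 CpG) and chr2:52558562-52558861 (49.7% GC, 5 CpG) hold no GC-box letters. The region of Scn1a at chr2:66440788-66441087 (minus strand, 47.3% GC, 5 CpG) comes last.
Cacnb2, first start: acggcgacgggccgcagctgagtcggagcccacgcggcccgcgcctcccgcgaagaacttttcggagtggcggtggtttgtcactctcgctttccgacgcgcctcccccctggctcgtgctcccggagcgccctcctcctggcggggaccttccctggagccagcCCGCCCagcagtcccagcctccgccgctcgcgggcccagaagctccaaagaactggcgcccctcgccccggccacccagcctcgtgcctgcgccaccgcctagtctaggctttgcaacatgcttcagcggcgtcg
Cacnb2, later start: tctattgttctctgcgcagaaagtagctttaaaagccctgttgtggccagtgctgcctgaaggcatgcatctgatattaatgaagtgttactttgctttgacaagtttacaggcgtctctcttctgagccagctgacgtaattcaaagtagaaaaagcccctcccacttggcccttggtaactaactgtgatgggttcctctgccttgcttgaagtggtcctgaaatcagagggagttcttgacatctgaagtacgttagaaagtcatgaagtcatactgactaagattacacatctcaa
Cacnb4: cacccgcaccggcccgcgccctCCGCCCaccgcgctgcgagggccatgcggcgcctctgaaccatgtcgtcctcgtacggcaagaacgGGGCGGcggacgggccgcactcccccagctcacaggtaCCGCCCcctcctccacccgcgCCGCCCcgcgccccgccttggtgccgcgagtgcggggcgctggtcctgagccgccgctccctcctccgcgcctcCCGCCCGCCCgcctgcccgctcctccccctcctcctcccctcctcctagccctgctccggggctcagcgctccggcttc
Scn1a: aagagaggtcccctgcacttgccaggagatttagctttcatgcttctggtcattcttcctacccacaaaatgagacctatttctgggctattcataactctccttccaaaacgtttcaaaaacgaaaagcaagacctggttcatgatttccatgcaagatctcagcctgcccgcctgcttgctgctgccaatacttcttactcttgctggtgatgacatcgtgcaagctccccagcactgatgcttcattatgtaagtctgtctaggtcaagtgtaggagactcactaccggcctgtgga
Of the regions shown, the first of Cacnb2 and that of Cacnb4 hold GC-box letters and the other 2 hold none. A match is a description of these letters and not a binding site.

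Among the HCN genes Hcn2 was called lower in hippocampus after saline. Hcn2 had levels of 168, 187 and 218 CPM in PFC Saline and 137, 152 and 188 CPM in hippocampus Saline. The ranges overlapped, and the log2 difference was -0.29 (SE 0.11, adjusted p = 0.0348), a call that was lost when any of 5 single libraries was left out. It was -0.47 after PSD-95i (adjusted p = 0.000344) and did not pass after PICK1i, at -0.16 (adjusted p = 0.258). Without hippocampus PICK1i 7, which held 326 CPM of Hcn2, the PICK1i difference was -0.34 (adjusted p = 0.000134). Hcn3 had medians of 14.4 and 13.7 CPM and a log2 difference of -0.11 (95% interval -0.41 to 0.19). Hcn4, the pacemaker form of heart and thalamus, was scarce, with medians of 3.09 and 1.46 CPM. Its log2 difference was called after PSD-95i, at -1.36 (adjusted p = 0.0441), a call that was lost when any of 8 single libraries was left out (largest adjusted p = 0.0987). Without hippocampus PICK1i 7 it was called after PICK1i, at -1.37 (adjusted p = 0.00397), and with only the saline groups in the fit it was called after saline, at -0.86 (adjusted p = 0.0351). PFC PICK1i 6 and hippocampus PICK1i 7 stood far above their groups for Hcn4, at 15.4 and 19.5 CPM, the latter the library high in thalamic markers with a sum of 1720 CPM. Per kilobase, Hcn2 held 88.7% of the HCN pool in PFC Saline and 87.7% in hippocampus Saline.

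At the level of single transcripts, 21 of the channel genes could be tested for a difference in transcript usage between the tissues. After saline 2 of the 21 were called, Cacna1a (adjusted p = 0.00856) and Cacnb2 (adjusted p = 0.0156), beside 0.774% of the 8396 genes tested. The same 2 genes were called after PICK1i, beside 0.703% of genes, and they and Cacna1e (adjusted p = 0.0164) after PSD-95i, beside 3.69%. For Cacna1a the transcript behind the call was Cacna1a-210, a short transcript without a coding sequence at chr8:84601973-84617897. It held 1.43% ± 0.392 (SD, n = 8) of the Cacna1a counts in PFC Saline and 2.64% ± 0.294 (SD, n = 7) in hippocampus Saline. The main coding transcript Cacna1a-202 held 76.1% and 75.4%. Without transcripts under a mean share of 5%, Cacna1a was not called.

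For Cacnb2, the transcript Cacnb2-210 (chr2:14739216-14987907), also without an annotated coding sequence, held a smaller share in hippocampus. Its share was 13.1% ± 1.59 (range 10.9 to 15.1%) in PFC Saline and 8.63% ± 1.76 (7.01 to 11.6%) in hippocampus Saline. In the PSD-95i groups it was 14.8% ± 2.35 and 7.53% ± 1.19. As a single transcript it passed the test after PSD-95i, with a log2 difference in usage of -0.65 (adjusted p = 4.27e-06), and not after saline (-0.43, adjusted p = 0.0737) or PICK1i (-0.41, adjusted p = 0.138). The coding transcript Cacnb2-203, which starts within the GC-rich region shown above, held 20.7% ± 2.54 in PFC Saline and 25.4% ± 1.48 in hippocampus Saline, a difference that did not pass the test (log2 0.22, adjusted p = 1). Most Cacnb2 counts, 62.4%, were assigned to transcripts annotated with a retained intron, and 27.6% to coding ones, so the gene's higher hippocampal count is not a measure of its coding RNA alone.

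The partner genes of these channels, taken from a list of 45 in the table, differed between the tissues as well. After saline 23 of 42 tested were called, 9 higher and 14 lower in hippocampus (54.8%, beside 38.3% of all genes). Among the sodium channel partners 4 of 13 were higher and 3 lower. The intracellular FGFs, which bind the tail of the alpha subunit, went both ways, with log2 differences of -1.08 for Fgf12 and -0.60 for Fgf14 but 0.62 for Fgf13 and 0.73 for Fgf11. Among 20 calcium channel partners 4 were higher and 9 lower. Rem2, a small GTPase that inhibits calcium channels, was higher by 3.29 (adjusted p = 2.29e-11), and Cachd1, an alpha2delta-like protein, by 2.32 (adjusted p = 3.31e-18). Cabp1, a calcium-binding regulator of the alpha1 subunit, was lower, at -1.57 (adjusted p = 8.07e-15), and so was the adaptor Stac2 at -1.12 (adjusted p = 2.21e-10). Of the 4 genes of the sodium leak channel complex, Unc79 alone was called after saline, at 0.26, and of 5 HCN partners 2 were lower. Cacng8, an auxiliary subunit of AMPA receptors in the gamma family, was higher by 1.22 (adjusted p = 7.27e-07). After PICK1i 9 partners were higher and 13 lower, beside 18.5% and 18.3% of all genes. After PSD-95i 11 were higher and 15 lower, beside 23.1% and 21.9% of all genes. The log2 differences after PICK1i and PSD-95i were 2.16 and 2.04 for Cachd1, 3.41 and 3.87 for Rem2, 0.78 and 0.97 for Fgf11, -1.77 and -1.77 for Cabp1, and -1.26 and -1.09 for Stac2. Cacng3, of the same gamma family, was lower at -1.28 after PICK1i, and Fgf12 at -1.13 after PSD-95i.

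None of the 30 tested channel genes passed the test after either inhibitor in either tissue. In edgeR's quasi-likelihood test 0 of 30 were called in PFC after PICK1i against saline (0.201% of all 14911 genes were called, 0.181% higher and 0.0201% lower), 0 after PSD-95i against saline (0% of genes) and 0 between the inhibitors (0.335%, of which 0.0738% higher and 0.262% lower after PSD-95i). In hippocampus 0 of 30 were called in each of the same 3 comparisons, where 0% of the 15051 genes were called. DESeq2 called 0 in all 6 comparisons as well. At an unadjusted p under 0.05 there were 2, 5 and 5 genes in PFC and 1, 1 and 4 in hippocampus. Both inhibitors were set against the same saline libraries, so their comparisons are not independent of each other. The median log2 change over the 30 genes was 0.03 for PICK1i and 0 for PSD-95i in PFC, beside 0.01 and 0 over all genes. In hippocampus it was -0.02 for both, beside 0 for both over all genes.

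The intervals show how much change these data could still hold. In PFC the 95% interval lay within a 25% change either way for 18 of 30 genes after PICK1i and 17 after PSD-95i, and in hippocampus for 11 and 15. For Scn8a the change in PFC was 1.42% after PICK1i (95% interval -8.26 to 12.1%) and 6.73% after PSD-95i (-3.45 to 18%). In hippocampus it was -3.18% (-12.1 to 6.62%) and 3.48% (-6.03 to 14%). A p that misses the threshold does not show that levels were the same. The mRNAs of the targeted proteins, Pick1 and Dlg4 (PSD-95), were not called either, with log2 changes between -0.11 and 0.08 in the 4 comparisons against saline.

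**Figure D5:**
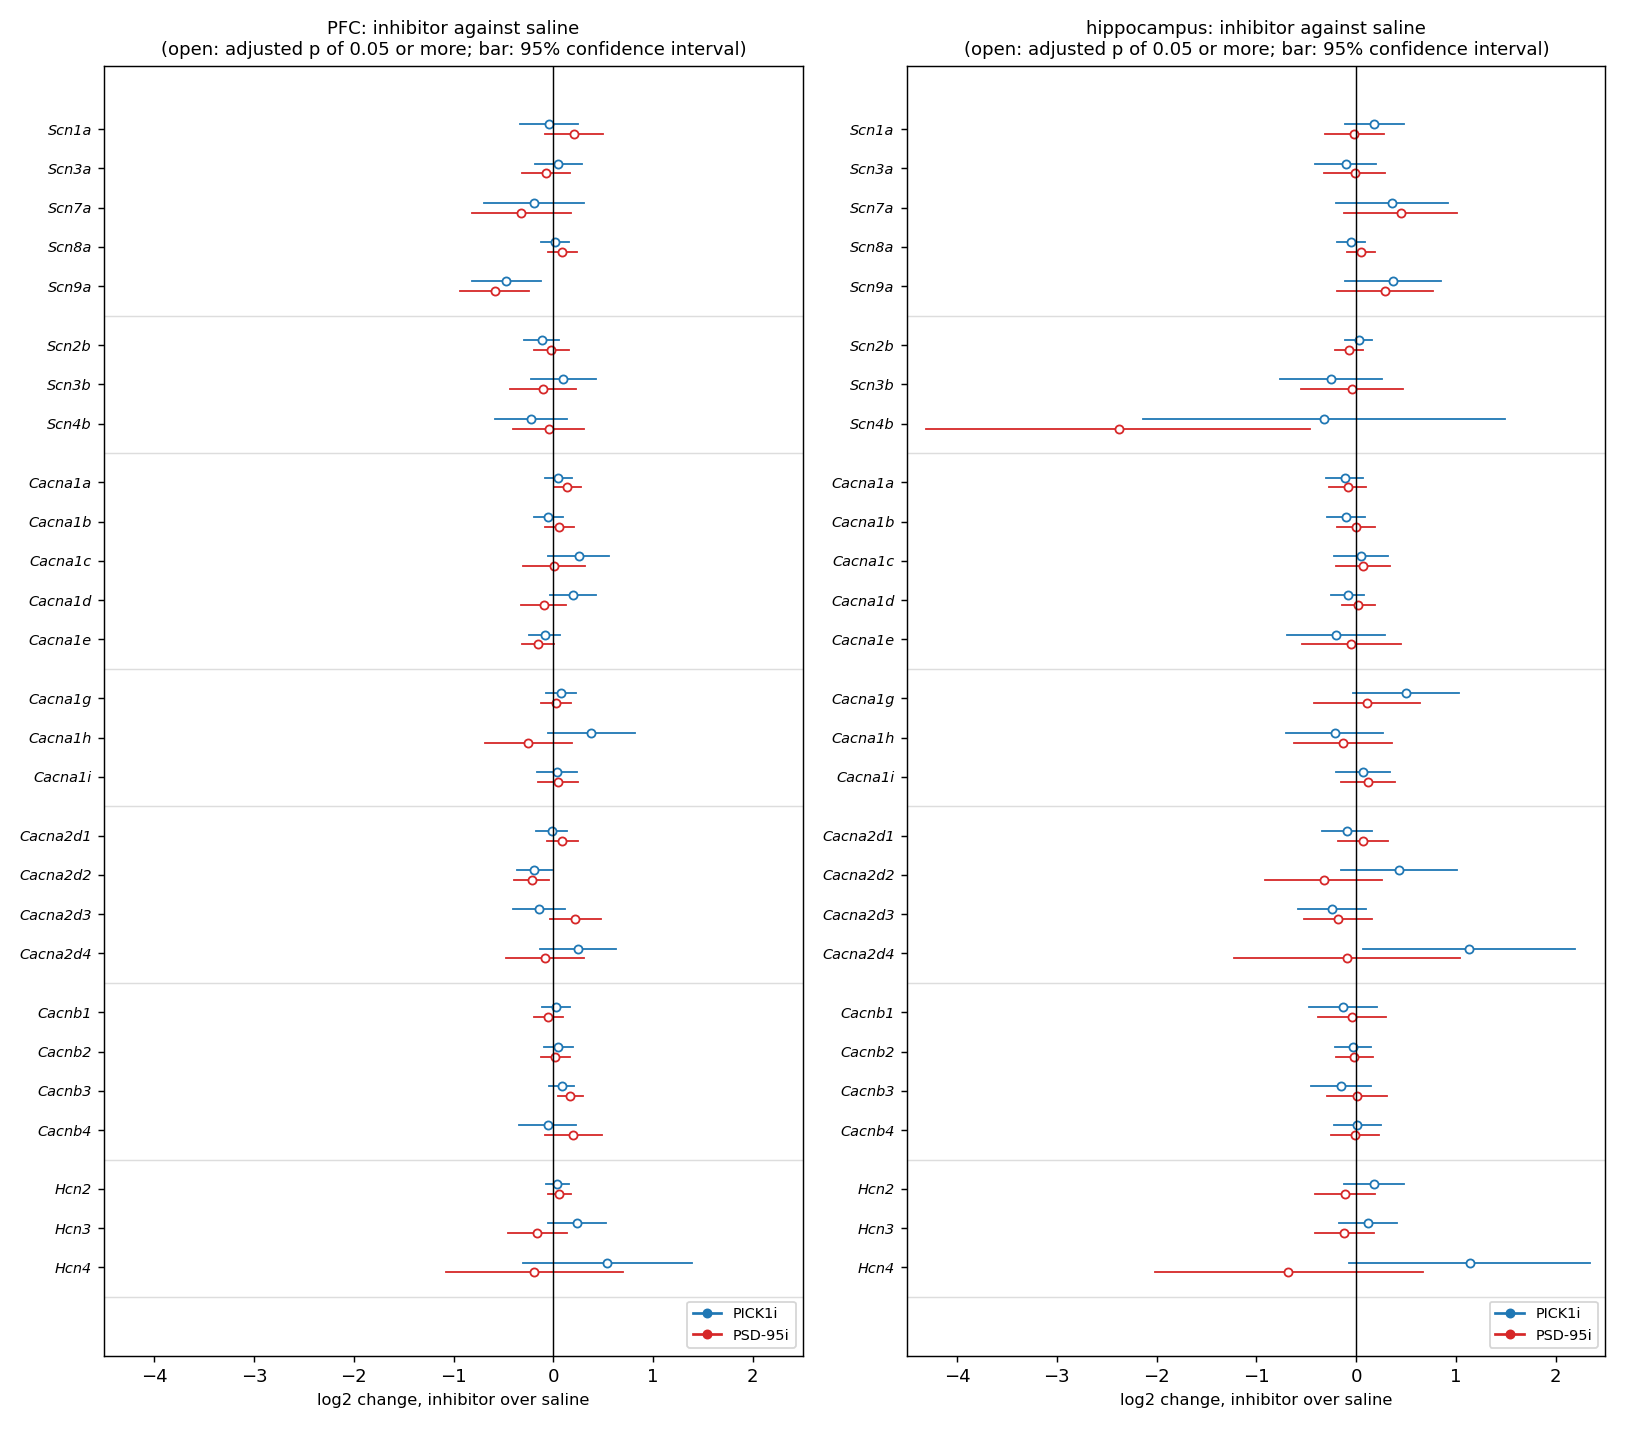
Log2 change of the tested channel genes described here after PICK1i and after PSD-95i against saline, with 95% confidence intervals, in PFC and in hippocampus. Every point is open, since no gene had an adjusted p under 0.05, and the Scn4b interval in hippocampus after PSD-95i runs from -4.31 to -0.46.

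Among the channel genes in PFC, the smallest unadjusted p of each inhibitor against saline belonged to Scn9a. Its levels were 1.92, 3 and 4.24 CPM in PFC Saline, 1.64, 2.06 and 2.92 CPM in PFC PICK1i and 1.38, 2.04 and 2.63 CPM in PFC PSD-95i, with overlap among all 3 groups. The log2 change was -0.47 after PICK1i (95% interval -0.82 to -0.12) and -0.59 after PSD-95i (-0.94 to -0.24), and neither passed after adjustment over all genes. Cacna2d2 had log2 changes of -0.19 (-0.36 to -0.01) and -0.21 (-0.39 to -0.04), and Cacnb3 had 0.17 (0.05 to 0.30) after PSD-95i. Cacna1h was at 0.38 after PICK1i (-0.05 to 0.82). Between the inhibitors in PFC, Cacna1h was at -0.63 in PSD-95i against PICK1i (-1.07 to -0.19), and at -0.42 without the libraries that stood apart (adjusted p = 0.0701). Cacna2d3 was at 0.36 (0.10 to 0.62, adjusted p = 0.315) and Hcn3 at -0.40 (-0.69 to -0.10, adjusted p = 0.333).

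Several of the fitted changes in hippocampus rested on libraries that stood apart. Scn4b was at -2.38 after PSD-95i (95% interval -4.31 to -0.46), and at -0.20 without the 6 libraries. Scn7a was at 0.45 (-0.12 to 1.01) and Scn9a at 0.29 (-0.19 to 0.77) after PSD-95i. After PICK1i, Cacna2d4 was at 1.13 (0.07 to 2.19), Hcn4 at 1.14 (-0.07 to 2.34) and Cacna1g at 0.50 (-0.03 to 1.03). Without the 6 libraries these 3 values were -0.03, -0.12 and 0.04. Hippocampus PICK1i 7, high in thalamic markers, held 19.3 CPM of Cacna2d4 where the next highest library of its group held 4.42 CPM. Between the inhibitors in hippocampus, Hcn4 was at -1.81, Cacna2d2 at -0.75 and Cacna2d4 at -1.22 in PSD-95i against PICK1i, and at -0.68, -0.35 and -0.03 without the 6 libraries.

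Whether an inhibitor acted differently in the tissues was tested as an interaction over all 6 groups. For PICK1i 0 of 30 channel genes were called (0.00639% of 15658 genes), with 2 at an unadjusted p under 0.05, and for PSD-95i 0 of 30 (0% of genes), with 4. DESeq2 called 0 in both. For Scn9a the interaction term was 0.84 for PICK1i (95% interval 0.25 to 1.43) and 0.88 for PSD-95i (0.29 to 1.46), each with an adjusted p of 1. In hippocampus its medians were 3.99, 4.29 and 4.94 CPM (saline, PICK1i, PSD-95i), beside 3, 2.06 and 2.04 CPM in PFC. So the calls of Scn9a between the tissues after the inhibitors, and not after saline, were not shown to differ from each other. The Scn4b term for PSD-95i was -2.34, and -0.28 without the 6 libraries. Further terms were 0.61 for Cacna2d2 and -0.28 for Cacna1d (PICK1i) and -0.23 for Cacna1a (PSD-95i), each with an adjusted p of 1. Among the partner genes 0 of 40 were called in each of the 6 inhibitor comparisons, with 1, 2 and 7 at an unadjusted p under 0.05 in PFC and 1, 0 and 2 in hippocampus. Transcript usage of the channel genes was called in 0 of 21 genes for each inhibitor in each tissue, with 0 at an unadjusted p under 0.05.

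The 5 genes that were not tested are the skeletal muscle and sensory neuron sodium channels Scn4a, Scn10a and Scn11a and the muscle and retinal calcium channels Cacna1s and Cacna1f. Their counts over all 47 libraries summed to 21 for Scn4a, 31 for Scn11a, 48 for Cacna1f, 125 for Cacna1s and 201 for Scn10a. Scn10a ran from 0.309 to 2.00 CPM in the 24 PFC libraries, with a median of 0.897, and from 0 to 0.499 CPM in the 23 hippocampal libraries, with a median of 0. These values are given without a test.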

How the data were processed

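RNA of 47 libraries was isolated with an RNeasy kit and sequenced from TruSeq Stranded mRNA libraries as 52-bp paired-end reads, per the labels' protocols. The authors used bcl2fastq 2.20.0, STAR and Salmon with GRCm38, per the submitters' processing notes; the sources used here name neither the gene annotation nor the strand setting of the counting. The values are estimated counts per gene and per transcript as deposited by the authors, and they were rounded to whole numbers here. In 10 channel genes an exon overlaps a gene on the other strand, so a wrong strand setting could add reads. They are Cacna1a, Cacna1d, Cacna1h, Cacna1s, Cacna2d2, Cacnb1, Cacnb2, Cacnb4, Hcn3 and Scn9a, so tissue differences given above for these genes carry that limit. Library totals of 5378174 to 13139408 counts set the precision, and no pair of libraries of the same group agreed within sampling noise.

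Counts were tested with edgeR 4.0.16 (R 4.3.3): filterByExpr with a minimum count of 10 and a minimum total of 15, TMM scaling, a robust quasi-likelihood fit, and Benjamini-Hochberg adjustment over all genes at 0.05. Inhibitors were compared within each tissue, with its 3 groups in 1 fit. Tissues and interactions were compared in a fit of all 6 groups. Transcript usage was tested with edgeR's diffSpliceDGE, and transcript lengths for CPM per kb came from GENCODE M21. DESeq2 1.42.0 was an alternative, as were other scaling, no filter, other sets of groups, a replicate block and leaving out each library. The tests were checked on simulated data, where small changes were often missed. Of 1.25-fold changes 28% were recovered for PICK1i in PFC and 18% for PSD-95i in hippocampus, and of 1.5-fold changes 78% and 60%. For the PICK1i interaction 8% and 36% were recovered. In simulated transcript usage 40% of the main transcript was moved to another in 200 of 8302 genes. All 200 were recovered, and 20 unchanged genes were called as well. The differences in usage reported above were smaller, so this recovery does not show how often such differences, or smaller changes after an inhibitor, would be found.

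The channel genes and the lists of partners and markers were chosen with earlier results of these data known. Of the 35 channel genes, 3 entered every fit and count but are not reported by name here. The text names genes called in a treatment, the 3 partners with the smallest p in each direction and the 3 smallest p of each inhibitor comparison. Other genes, such as the intracellular FGFs, Unc79, Pvalb and Vip, were named after their values were seen.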

Additional observations from a re-analysis of the deposited data

Results flagged for a closer look

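For each of the 30 tested channel genes in each of the 6 groups, 180 pairs in all, it was asked whether 1 library lay far outside the others (Dixon's 95% criterion on the CPM). This was so for 32 pairs; chance alone marks about 1 in 20. Of these, 25 lay in the 6 libraries high in markers of another region and 7 in other libraries. Each value is given with that of the nearest library of its group.

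In PFC PICK1i 6, high in olfactory bulb markers, the highest values of the group were Cacna1c at 221 CPM (nearest 112 CPM), Cacna1d at 137 CPM (nearest 81.3 CPM) and Cacna1g at 189 CPM (nearest 134 CPM). The same held for Cacna1h at 176 CPM (nearest 83.6 CPM), Cacna2d4 at 4.27 CPM (nearest 2.92 CPM) and Hcn3 at 28.2 CPM (nearest 20.8 CPM). So was Hcn4 at 15.4 CPM (nearest 4.21 CPM). In the same library the lowest value was Cacnb1 at 147 CPM (nearest 183 CPM).

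In hippocampus PICK1i 7, high in thalamic markers, the highest values of the group were Cacna1g at 234 CPM (nearest 96.4 CPM), Cacna2d2 at 106 CPM (nearest 63.7 CPM) and Cacna2d4 at 19.3 CPM (nearest 4.42 CPM). So were Hcn2 at 326 CPM (nearest 192 CPM), Hcn4 at 19.5 CPM (nearest 2.67 CPM) and Scn1a at 157 CPM (nearest 84.0 CPM). In the same library the lowest values were Cacna1e at 79.6 CPM (nearest 413 CPM), Cacna1h at 40 CPM (nearest 154 CPM), Cacnb1 at 50.2 CPM (nearest 152 CPM), Cacnb3 at 51.7 CPM (nearest 112 CPM) and Scn3b at 41.9 CPM (nearest 175 CPM).

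PFC PSD-95i 6 held Cacna1a at 206 CPM (lowest, nearest 234 CPM). PFC Saline 1 held Cacnb1 at 217 CPM (highest, nearest 192 CPM) and Scn4b at 264 CPM (highest, nearest 190 CPM). Hippocampus PICK1i 2 held Cacna2d3 at 158 CPM (highest, nearest 102 CPM) and Scn4b at 448 CPM (highest, nearest 171 CPM). Hippocampus Saline 1 held Scn4b at 648 CPM (highest, nearest 36.2 CPM). These 4 libraries are among the 6.

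PFC PSD-95i 8 held Cacna2d2 at 48.6 CPM (highest, nearest 39 CPM) and Cacnb3 at 292 CPM (highest, nearest 235 CPM). Hippocampus PICK1i 6 held Scn9a at 11.9 CPM (highest, nearest 6.70 CPM). Hippocampus PSD-95i 4 held Hcn2 at 176 CPM (highest, nearest 150 CPM) and Hcn3 at 19.5 CPM (highest, nearest 13.5 CPM). Hippocampus Saline 2 held Scn7a at 5.47 CPM (highest, nearest 3.70 CPM). Hippocampus Saline 4 held Cacna2d1 at 220 CPM (highest, nearest 185 CPM). None of these stood apart by the markers of another region.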

How the results depend on the processing

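Across the 3 tissue comparisons and the inhibitor comparisons, 292 of 296 counts of called genes under an alternative lay within 1.5 times the reported count. The other 4 were counts of genes with a tissue difference in transcript usage. The 296 include the inhibitor comparisons, whose counts of 0 say nothing of how firm the tissue calls were. The fall from 18 to 12 PICK1i calls given below was counted as within the limit. Keeping transcripts at a mean share of 5% or more left 1 gene, Cacnb2, in each treatment. Leaving out the 6 libraries high in markers of another region, like leaving out the 5 high in choroid plexus markers an alternative chosen after seeing the data, gave 7 genes after PSD-95i. The causes were not tested. Leaving out 1 library at a time gave 15 to 18 called channel genes in the saline groups, 17 to 20 with PICK1i and 19 to 21 with PSD-95i, and 0 to 0 in each inhibitor comparison. DESeq2 gave 18, 18 and 20, no filter 16, 18 and 22, and fitting only the groups compared 19, 12 and 23 (saline, PICK1i, PSD-95i). The counts without a filter also take in the 5 scarce genes not tested otherwise, so they are not over the same 30 genes. Without the filter Cacna2d1 and Hcn2 lost the saline call, Cacna1g the PICK1i call and Hcn4 the PSD-95i call. In the fit of only the groups compared, Cacna1b, Cacna1c, Cacna1d, Cacna1e, Cacna1g and Cacna2d1 were not called after PICK1i. Of 2660 values of single genes 1 turned direction past the threshold: Cacna2d4 after PICK1i was -0.55 (adjusted p = 0.0416) without the 6 libraries, against 0.52. DESeq2 called Scn4b lower in hippocampus after saline, at -2.24 (adjusted p = 6.83e-05).

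Replicate numbers gave no clear sign of a pairing: same-numbered libraries correlated between -0.28 and 0.41. This check cannot show that the samples were unpaired, since both tissues may have come from the same mice under other numbers. The labels do not say, and the tissue tests treated the libraries as unpaired. With the replicate block 17, 18 and 19 genes were called between the tissues and 0 in each inhibitor comparison. Scarce genes limited the precision: over the libraries of a group the coefficient of variation of Hcn4 was 56.6% and that of Cacna1d 7.63% (medians over the groups).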
